A study of Danio rerio with 80 samples.

Results

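The cathepsin genes *ctsl.1* (ENSDARG00000003902) and *ctss2.1* (ENSDARG00000074656) were followed in whole zebrafish embryos exposed to benzo[a]pyrene (BaP) or to one of its methylated forms. They are 2 of the 32520 genes in the count table, and both were taken by their Ensembl identifiers in all 20 groups of compound, concentration and time. Both were chosen by measured values. *ctss2.1* was named by the study among the 48 h post-fertilization (hpf) genes that followed the concentration of 8-methylbenzo[a]pyrene (8-MBaP) and of neither BaP nor 6-methylbenzo[a]pyrene (6-MBaP). The study also required such genes to be differentially expressed in earlier data on embryos exposed to benzo[j]fluoranthene and benzo[k]fluoranthene. *ctsl.1* was picked for its rise at 13.3 µM 8-MBaP at 72 hpf in an earlier analysis of the same counts. In the fit reported here it ranked 40 by fold among the 222 genes called higher in that contrast. The *ctss2.1* values at 48 hpf and the *ctsl.1* values at 72 hpf are therefore descriptions and carry no p-value. Adjusted p-values are given for *ctsl.1* at 48 hpf and *ctss2.1* at 72 hpf. The pair of genes was proposed with results of both times in view, so these p-values are not fully independent of the choice.

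Embryos of the 5D wild-type strain were exposed to 0.133, 1.33 or 13.3 µM 8-MBaP, 6-MBaP or BaP, or to vehicle alone as control, from the first hours of development. All groups, the controls included, carried 1% dimethyl sulfoxide (DMSO). Embryos alive at 48 or 72 hpf were pooled by 6, and their RNA was read from the 3′ ends of their polyadenylated transcripts, with 4 pools in each of the 20 groups (80 libraries). 8-MBaP is the compound under which these embryos grow an extra caudal fin fold, the x-fin. Each compound and concentration had 1 exposure plate and the controls had 1, so the 4 pools of a group share a plate. By that account the pools of 48 and 72 hpf also came from the same plates, and a plate difference could appear at both times. The p-values at 1 time are then not independent of a choice made at the other. The effects of plate and exposure cannot be told apart, and a p-value measures the spread between pools of a plate. In whole embryos, more transcript per cell and more cells of a type that express the gene also cannot be told apart.

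Total counts ran between 4838752 and 8779891 per library (median 6467821), and no pair of libraries within a group was identical. Values below are CPM, read counts relative to the library's total, scaled within a time point by trimmed mean of M-values (TMM). *ctsl.1* rested on few reads: 3 to 12 per control library at 48 hpf and 1 to 69 per exposed library. *cyp1a* (listed as CYP1A1), the best-known target of the aryl hydrocarbon receptor (AHR), averaged 885 ± 81.5 CPM at 13.3 µM 8-MBaP and 5.01 ± 0.685 CPM in controls at 48 hpf (SD, n = 4 each).

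Cathepsins are proteases, most of them cysteine proteases that work in the acid of endosomes and lysosomes. They are made as inactive precursors, are activated by removal of a propeptide, and are held in check by cystatins. Cathepsin L degrades proteins in lysosomes and, when secreted, the matrix around cells. Cathepsin S keeps its activity at neutral pH and in mammals trims the invariant chain from class II antigen-presenting molecules of macrophages, dendritic cells and B cells. *ctsl.1* is one of several cathepsin L genes of the zebrafish, where *ctsla* is another. *ctss2.1* is one of the cathepsin S genes. In the RefSeq annotation (assembly GRCz12tu) *ctss2.1* lies between *ctsk*, a cathepsin K gene, and *ctss2.2*. Where *ctss2.1* and *ctss2.2* are alike in sequence, reads could be shared out between them in a way the counts do not show, so each value of *ctss2.1* is uncertain to that extent.

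*ctsl.1* was higher in embryos exposed to 8-MBaP than in controls at 48 hpf, and its mean was above the control mean in all 9 exposed groups at each time. The 9 groups of a time were set against the same 4 control pools, so these are not 9 separate observations. The margin was small in places, as at 1.33 µM 6-MBaP and 48 hpf (1.38 CPM against 1.26 CPM in controls). The 4 pools at 0.133 µM 8-MBaP held 3.75, 4.65, 4.13 and 4.50 CPM at 48 hpf. At 1.33 µM they held 10.1, 10.4, 6.07 and 6.05 CPM, and at 13.3 µM 7.19, 6.76, 6.04 and 4.86 CPM. Control pools held 0.567, 1.65, 2.09 and 0.720 CPM. Every 8-MBaP pool was thus above every control pool, and the highest mean was at the middle concentration.

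Against control at 48 hpf, the log2 fold change of *ctsl.1* was 2.66 ± 0.458 (standard error, SE) at 1.33 µM 8-MBaP (6.31-fold, adjusted p = 4.6e-05) and 2.27 ± 0.462 at 13.3 µM (4.82-fold, adjusted p = 0.00068). Both passed the edgeR quasi-likelihood test at an adjusted p of 0.05 or less. At 0.133 µM the log2 fold change of *ctsl.1* was 1.73 ± 0.467 with an adjusted p of 0.059, which missed the threshold although all 4 pools were above the controls. Of the 17794 genes tested at 48 hpf, 0.433%, 0.691% and 1.54% were called at the 3 concentrations of 8-MBaP, low to high. By fold, *ctsl.1* ranked 14 of the 74 genes called higher at 1.33 µM and 21 of the 137 called higher at 13.3 µM. Leaving out control pool C brought the 0.133 µM contrast to an edgeR adjusted p of 0.042. Other single omissions raised it, to at most 0.26.

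6-MBaP and BaP gave smaller values of *ctsl.1* at 48 hpf, and none of their 6 contrasts with control passed the test. BaP pools at 13.3 µM held 4.55, 2.74, 2.72 and 4.04 CPM, all above the control pools (log2 fold change 1.46 ± 0.478, adjusted p = 0.24). At 1.33 µM BaP the 4 pools spread from 1.54 to 5.22 CPM, and at 0.133 µM from 0.743 to 2.76 CPM. The 6-MBaP pools ran from 1.89 to 3.32 CPM at 0.133 µM, from 0.152 to 3.21 CPM at 1.33 µM and from 1.34 to 5.01 CPM at 13.3 µM. All 5 of these ranges overlapped the controls, and the lowest *ctsl.1* value of the series, 1 read, was in pool C of 1.33 µM 6-MBaP. Over all genes tested at 48 hpf, 0.0112%, 0.0843% and 0.343% were called at the 3 concentrations of BaP, low to high, and 0%, 0% and 0.253% at the same concentrations of 6-MBaP. The counts of 0 came from edgeR. At an unadjusted p under 0.05 there were 1245 genes at 0.133 µM and 1136 at 1.33 µM 6-MBaP, and DESeq2 called 14 and 0 genes.

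**Figure D1:**
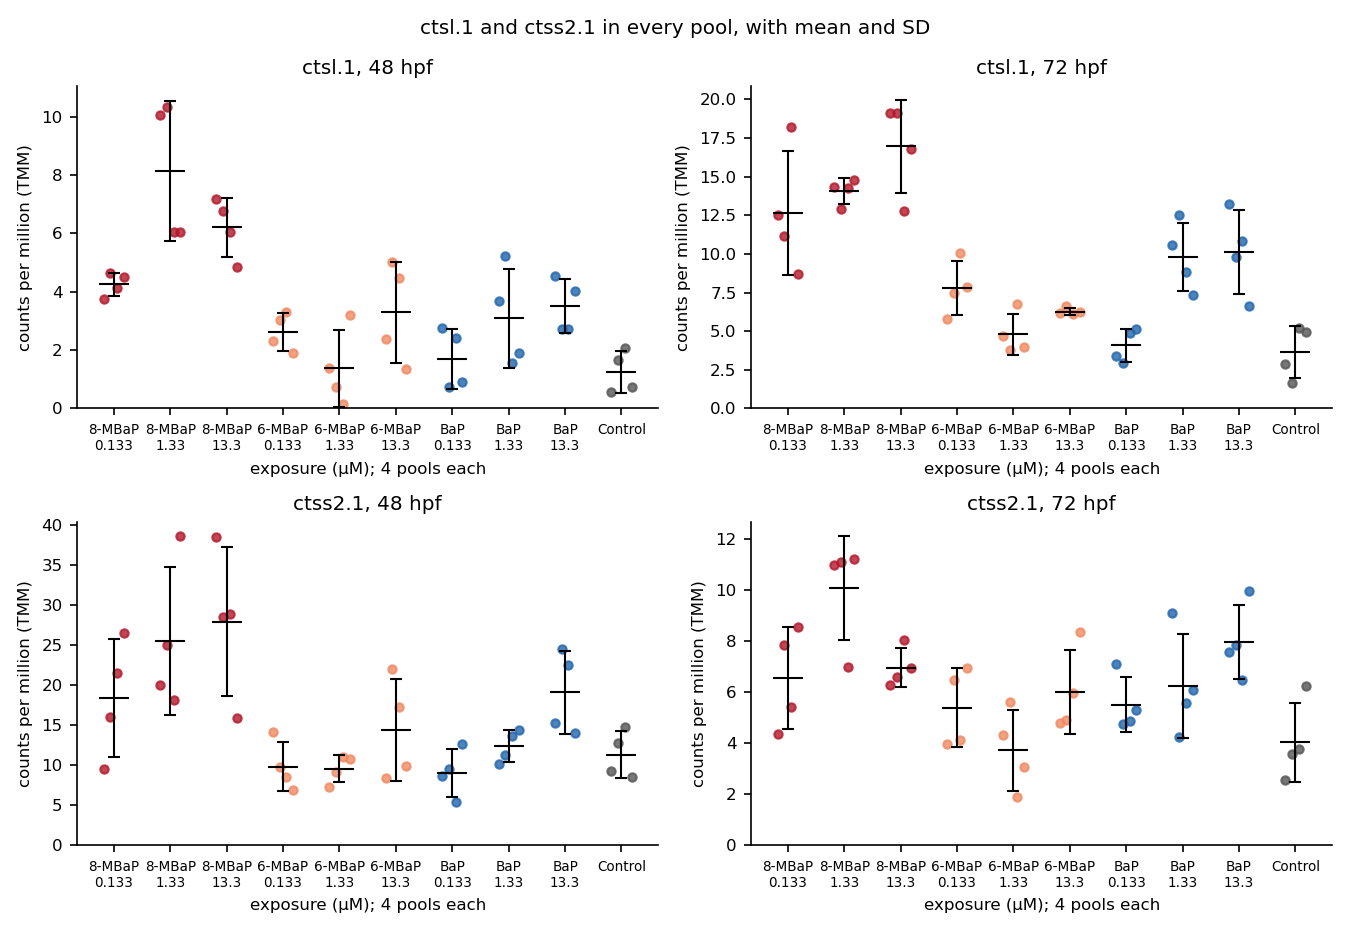
CPM of *ctsl.1* (top) and *ctss2.1* (bottom) in every pool at 48 hpf (left) and 72 hpf (right), by compound and concentration in µM, with controls last. Points are pools (4 per group), long ticks are means and bars are 1 SD. At 72 hpf the *ctsl.1* means under 8-MBaP lie between 12.7 and 16.95 CPM against 3.66 CPM in controls, and the *ctss2.1* axis spans a lower range at 72 than at 48 hpf.

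At 72 hpf *ctsl.1* was high at all 3 concentrations of 8-MBaP, with pools of 12.5, 11.2, 18.19 and 8.73 CPM at 0.133 µM. The pools held 14.4, 12.9, 14.3 and 14.8 CPM at 1.33 µM, and 19.1, 19.1, 12.8 and 16.8 CPM at 13.3 µM. Control pools at 72 hpf held 2.89, 1.65, 5.18 and 4.92 CPM. The lowest 8-MBaP pool was thus above the highest control pool at each concentration.

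As a description with no test, the log2 fold change of *ctsl.1* at 72 hpf was 1.78 ± 0.258 at 0.133 µM 8-MBaP, 1.93 ± 0.256 at 1.33 µM and 2.197 ± 0.254 at 13.3 µM, that is 3.44-, 3.82- and 4.59-fold. The ranges of neighbouring 8-MBaP concentrations overlapped at 72 hpf. Of the 18423 genes tested at that time, 0.277%, 0.923% and 2.47% were called at the 3 concentrations of 8-MBaP, low to high.

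BaP at 1.33 and 13.3 µM also lay apart from the controls at 72 hpf for *ctsl.1*. The pools held 10.6, 12.5, 8.82 and 7.36 CPM at 1.33 µM BaP (log2 fold change 1.397 ± 0.262) and 13.3, 9.78, 10.8 and 6.63 CPM at 13.3 µM (1.46 ± 0.260). BaP at 0.133 µM averaged 4.09 ± 1.08 CPM and overlapped the control average of 3.66 ± 1.69 CPM (SD, n = 4 each). The 6-MBaP means had no order by concentration: 7.79 ± 1.76 CPM at 0.133 µM, 4.79 ± 1.35 CPM at 1.33 µM and 6.27 ± 0.236 CPM at 13.3 µM. All pools of the lowest and the highest 6-MBaP concentration were above every control pool, and those of the middle one were not. Over all genes, 0.00543%, 0.00543% and 0.038% were called at the 3 concentrations of 6-MBaP, low to high, and 0.0109%, 0.13% and 0.809% at those of BaP.

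*ctss2.1* was highest under 8-MBaP at 48 hpf, the values that singled it out. The pools at 0.133 µM 8-MBaP held 9.44, 16.1, 21.5 and 26.6 CPM. At 1.33 µM they held 19.95, 25.1, 18.19 and 38.7 CPM, and at 13.3 µM 38.5, 28.5, 28.9 and 15.9 CPM. Controls held 9.27, 12.7, 14.8 and 8.47 CPM. All pools at 1.33 and 13.3 µM 8-MBaP were above every control pool, while 0.133 µM overlapped the controls with 1 pool.

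The log2 fold change of *ctss2.1* at 48 hpf was 0.69 ± 0.266 at 0.133 µM 8-MBaP, 1.17 ± 0.263 at 1.33 µM and 1.296 ± 0.262 at 13.3 µM (1.62-, 2.25- and 2.46-fold). BaP at 13.3 µM averaged 19.1 ± 5.20 CPM, above the 18.4 ± 7.35 CPM of 0.133 µM 8-MBaP, with 3 of 4 pools over the highest control. At 13.3 µM 6-MBaP the 4 pools held 8.39, 22.0, 17.2 and 9.86 CPM, so that 2 stood above all controls and 1 below. The lower 2 concentrations of 6-MBaP and of BaP averaged between 9.02 and 12.4 CPM, around the control mean of 11.3 ± 2.96 CPM.

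At 72 hpf *ctss2.1* was called at 1.33 µM 8-MBaP and at no other exposure by edgeR. The pair of genes was proposed with results of this time also in view, so the p-values here are not fully independent of that choice. The pools at 1.33 µM 8-MBaP held 11.0, 11.1, 6.995 and 11.2 CPM, against 2.55, 3.57, 3.77 and 6.22 CPM in controls. The groups did not overlap, and pool C lay well below the other 3 exposed pools. The log2 fold change was 1.298 ± 0.274 (2.46-fold, adjusted p = 0.0027 by edgeR's quasi-likelihood test).

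At 13.3 µM 8-MBaP the *ctss2.1* pools held 6.26, 6.59, 8.03 and 6.94 CPM at 72 hpf. They lay just above the highest control pool (log2 fold change 0.77 ± 0.280, adjusted p = 0.16). At 0.133 µM 8-MBaP they spread from 4.37 to 8.55 CPM (0.67 ± 0.283, adjusted p = 0.72). BaP at 13.3 µM held 7.58, 7.83, 6.47 and 9.95 CPM, all above the controls, and missed the threshold (0.96 ± 0.277, adjusted p = 0.083). Single pools carried weight here: without control pool D the edgeR adjusted p was 0.042 at 13.3 µM 8-MBaP and 0.020 at 13.3 µM BaP. Other single omissions raised it, to at most 0.42 and 0.27. The remaining 5 exposures, 3 of 6-MBaP and 2 of BaP, overlapped the controls, with means between 3.72 and 6.23 CPM against 4.03 ± 1.56 CPM.

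**Figure D2:**
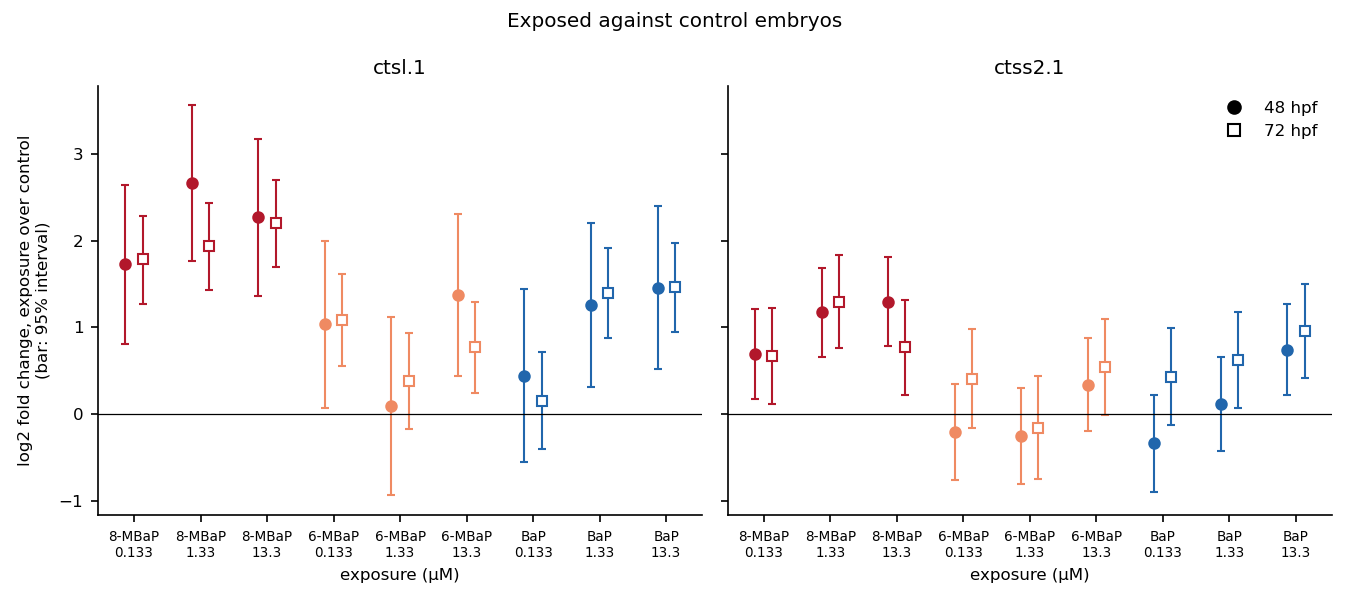
Log2 fold change of each exposure over the controls of its time for *ctsl.1* (left) and *ctss2.1* (right), by compound and concentration in µM. Points are estimates at 48 hpf (filled) and 72 hpf (open), and bars are 95% intervals. The *ctsl.1* estimates under 8-MBaP lie between 1.73 and 2.66, and the *ctss2.1* estimates under 8-MBaP between 0.67 and 1.298.

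Ordered by mean, the 3 groups highest in *ctsl.1* at both times were the 3 concentrations of 8-MBaP, and the control was lowest. Neighbours in that order overlapped in their 4-pool ranges at every step except 1, between 13.3 and 0.133 µM 8-MBaP at 48 hpf. For *ctss2.1* every neighbour overlapped the next at both times, and the control stood in 7th place of 10 at 48 hpf and in 9th at 72 hpf. The order of *ctss2.1* at 72 hpf was led by 1.33 µM 8-MBaP, followed by 13.3 µM BaP and 13.3 µM 8-MBaP. The coefficient of variation among the 4 pools of a group ran from 3.77% to 96.5% for *ctsl.1* and from 11.1% to 44.5% for *ctss2.1*.

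BaP, 6-MBaP and 8-MBaP share 1 ring system, the methylated forms bearing a methyl group at the position in their names. The 3 pairs of compounds were compared at each matched concentration and time, 18 comparisons per gene, of which 9 per gene carry a p-value. *ctsl.1* was higher under 8-MBaP than under 6-MBaP at 1.33 µM and 48 hpf, with averages of 8.13 ± 2.40 and 1.38 ± 1.33 CPM (SD, n = 4 each). The log2 difference was 2.56 ± 0.438 (5.92-fold, 95% interval 1.71 to 3.42, edgeR adjusted p = 5.1e-05), and the pools did not overlap. *ctss2.1* passed for the same compounds and concentration at 72 hpf, with averages of 10.1 ± 2.06 CPM under 8-MBaP and 3.72 ± 1.59 CPM under 6-MBaP. Its log2 difference was 1.45 ± 0.284 (2.74-fold, interval 0.90 to 2.01, adjusted p = 0.001), again with no overlap of pools. These comparisons called 0.506% of genes at 48 hpf and 0.89% at 72 hpf.

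The other 8-MBaP and 6-MBaP pairs of *ctsl.1* at 48 hpf had log2 differences of 0.69 (interval −0.10 to 1.49) at 0.133 µM and 0.89 (interval 0.14 to 1.65) at 13.3 µM, with adjusted p = 0.84 and 0.45. The same pairs of *ctss2.1* at 72 hpf were at 0.26 (interval −0.28 to 0.81) and 0.23 (interval −0.30 to 0.76), with adjusted p = 0.92 and 0.88. Over all genes, 0.163% and 0.731% were called for these pairs at 48 hpf, and 0.217% and 1.37% at 72 hpf. As descriptions, *ctsl.1* at 72 hpf gave 0.70, 1.55 and 1.43 for 8-MBaP over 6-MBaP from low to high concentration, and *ctss2.1* at 48 hpf gave 0.90, 1.42 and 0.95.

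None of the 8-MBaP and BaP pairs that carry a p-value passed. All 4 *ctsl.1* pools under 8-MBaP were above all 4 under BaP at each concentration at 48 hpf. The log2 differences were 1.28 ± 0.430 at 0.133 µM (adjusted p = 0.20), 1.395 ± 0.385 at 1.33 µM (adjusted p = 0.12) and 0.81 ± 0.387 at 13.3 µM (adjusted p = 0.42). For *ctsl.1* at 1.33 µM the edgeR adjusted p was 0.044 without BaP pool B, and other single omissions raised it to at most 0.51. *ctss2.1* at 72 hpf differed by 0.24 (interval −0.30 to 0.78), 0.68 (interval 0.16 to 1.19) and −0.19 (interval −0.70 to 0.33) from low to high concentration, with adjusted p of 0.92, 0.28 and 0.90. At 13.3 µM and 72 hpf *ctss2.1* was thus not measurably apart between 8-MBaP and BaP, and the interval leaves room for a modest difference either way. The shares of all genes called were 0.365%, 0.36% and 0.815% at 48 hpf, and 0.195%, 0.923% and 0.814% at 72 hpf.

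As a description, *ctsl.1* at 72 hpf was higher under 8-MBaP than BaP by 1.63, 0.54 and 0.74 on the log2 scale from low to high concentration, with no overlap of pools at the lower 2 concentrations. *ctss2.1* at 48 hpf was higher by 1.03, 1.05 and 0.55, with no overlap at 1.33 µM alone. Between 6-MBaP and BaP no tested pair passed. *ctsl.1* at 48 hpf differed by −1.17 (interval −2.08 to −0.26, adjusted p = 0.71) at 1.33 µM, and *ctss2.1* at 72 hpf by −0.78 (interval −1.35 to −0.20, adjusted p = 0.41). At 72 hpf all *ctsl.1* pools of 6-MBaP were below all of BaP at 1.33 and 13.3 µM and above them at 0.133 µM. Genes called for 6-MBaP over BaP made up 0.0169%, 0.0337% and 0.197% at 48 hpf, and 0.174%, 0.0543% and 0.114% at 72 hpf.

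**Figure D3:**
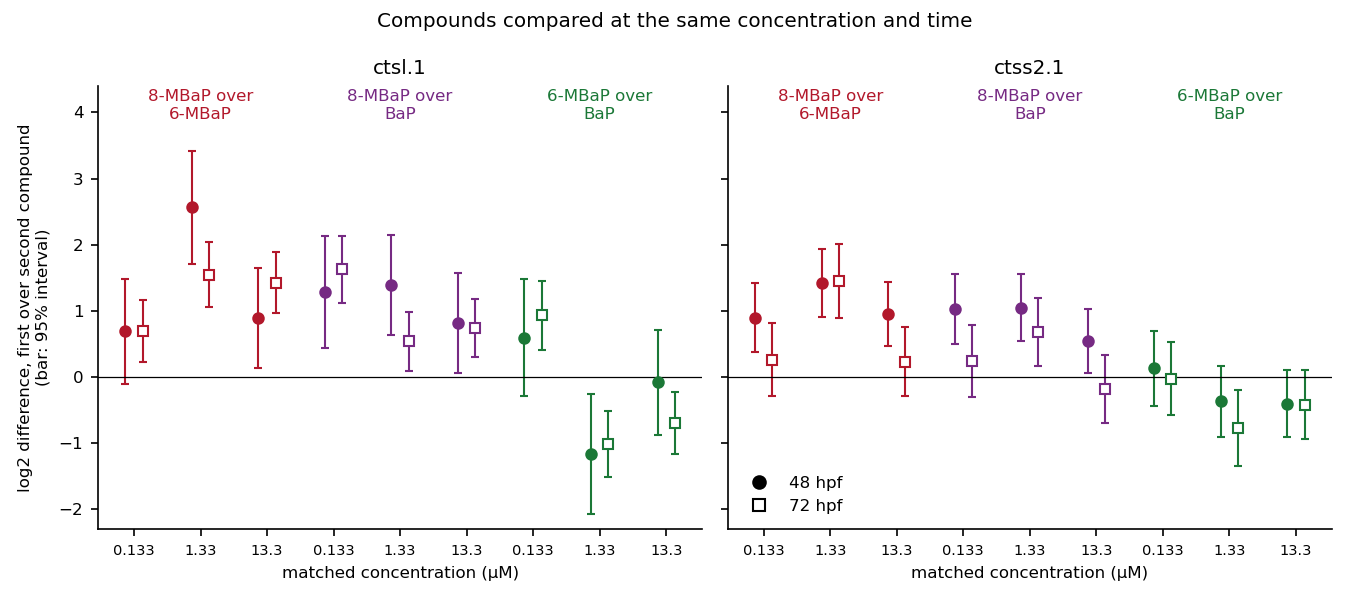
Log2 difference between compounds at matched concentration (µM) for *ctsl.1* (left) and *ctss2.1* (right), 8-MBaP over 6-MBaP, 8-MBaP over BaP and 6-MBaP over BaP. Points are estimates at 48 hpf (filled) and 72 hpf (open), and bars are 95% intervals. The 8-MBaP over 6-MBaP differences at 1.33 µM reach 2.56 for *ctsl.1* at 48 hpf and 1.45 for *ctss2.1* at 72 hpf.

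Neither gene differed past the threshold between neighbouring concentrations of 8-MBaP in the tests that carry a p-value. *ctsl.1* at 48 hpf moved by 0.93 ± 0.368 between 1.33 and 0.133 µM (adjusted p = 0.79) with all 4 pools higher, and by −0.39 ± 0.361 between 13.3 and 1.33 µM (adjusted p = 0.97). *ctss2.1* at 72 hpf moved by 0.62 ± 0.262 (adjusted p = 0.75) and −0.53 ± 0.259 (adjusted p = 0.54) at the same steps. In both series the middle concentration had the highest mean. These steps called 0.0899% and 0.0225% of genes at 48 hpf, and 0.168% and 0.147% at 72 hpf.

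In unexposed embryos the 2 genes moved in opposite directions with age. *ctsl.1* averaged 3.66 ± 1.69 CPM in 72 hpf controls and 1.26 ± 0.731 CPM in 48 hpf controls (log2 fold change 1.49 ± 0.433, adjusted p = 0.0039 in a fit of all 80 libraries), and its pools overlapped. *ctss2.1* averaged 4.03 ± 1.56 CPM in 72 hpf controls and 11.3 ± 2.96 CPM in 48 hpf controls (−1.49 ± 0.307, adjusted p = 5.3e-05), with every 72 hpf pool lower. Age changed many genes, 22.7% of the 19211 tested. These control libraries also enter the contrasts that chose the genes.

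Whether the effect of 8-MBaP differed between the 2 ages could not be settled at this precision for either gene. The *ctsl.1* effect at 72 hpf minus that at 48 hpf was 0.06 (interval −0.98 to 1.101) at 0.133 µM, −0.72 (interval −1.74 to 0.30) at 1.33 µM and −0.07 (interval −1.097 to 0.95) at 13.3 µM on the log2 scale. For *ctss2.1* it was −0.02 (interval −0.83 to 0.79), 0.12 (interval −0.67 to 0.91) and −0.53 (interval −1.33 to 0.27). All 6 intervals include 0 and are wide, so a sizeable change in either direction remains possible.

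Among the other cathepsins, *ctss2.2*, the neighbour of *ctss2.1*, was called at 72 hpf and in no exposure at 48 hpf. At 48 hpf it held 3.22 ± 1.08 CPM at 13.3 µM 8-MBaP and 2.97 ± 0.695 CPM in controls (0.11 ± 0.391, edgeR adjusted p = 0.95). The SE leaves room for a modest change in either direction. Its highest mean at that age, 4.22 ± 1.47 CPM at 1.33 µM 8-MBaP, came from pools that overlapped the controls. At 72 hpf its pools held 11.7, 7.88, 8.98 and 13.3 CPM at 13.3 µM 8-MBaP, against 2.55, 4.81, 3.46 and 4.02 CPM in controls. The log2 fold change of *ctss2.2* was 1.48 ± 0.262 at 13.3 µM (adjusted p = 9.2e-05) and 1.07 ± 0.266 at 1.33 µM (adjusted p = 0.021), and it was higher under 8-MBaP than 6-MBaP by 1.14 at 1.33 µM (adjusted p = 0.016) and 1.22 at 13.3 µM (adjusted p = 0.0018). The change of its 13.3 µM effect between the ages, 1.36 ± 0.467, did not pass (adjusted p = 0.47). A setting added after seeing the data summed the counts of *ctss2.1* and *ctss2.2*. At 72 hpf the sum was called at 1.33 µM 8-MBaP, as each gene alone was. It was also called at 13.3 µM 8-MBaP (1.15, edgeR adjusted p = 0.00012) and 13.3 µM BaP (0.90, edgeR adjusted p = 0.015).

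Apart from *ctsl.1* and *ctss2.1*, 14 cathepsin and legumain genes were tested at 48 hpf and 15 at 72 hpf. *ctsd*, an aspartic protease of the lysosome, was called higher at 13.3 µM 8-MBaP at 48 hpf (335 ± 35.6 CPM against 269.1 ± 9.91 CPM in controls, 0.32 ± 0.089, adjusted p = 0.048). With the 2 calls of *ctss2.2* this made 3 edgeR calls over the 18 exposure contrasts, all under 8-MBaP and 1 in each of 3 contrasts, where 1.54% (13.3 µM, 48 hpf), 0.923% (1.33 µM, 72 hpf) and 2.47% (13.3 µM, 72 hpf) of all genes were called. DESeq2 also called *ctss2.2* at 0.133 µM 8-MBaP and 72 hpf, where its pools held 6.12 to 9.52 CPM against 2.55 to 4.81 CPM in controls (edgeR adjusted p = 0.098). By edgeR none was called under 6-MBaP or BaP, where 0 to 4 of the list had an unadjusted p under 0.05 and DESeq2 called none. Depending on the exposure, DESeq2 gave no adjusted p there for up to 12 of the list at 48 hpf and up to 9 at 72 hpf. The median log2 fold change of the list at 13.3 µM 8-MBaP was 0.067 at 48 hpf and 0.122 at 72 hpf, beside 0.002 and −0.004 over all genes tested. *ctsla*, *ctsba* and *ctsk*, which encode cathepsins L, B and K, were not called in any exposure. CTSO averaged 0.874 ± 0.267 CPM at 13.3 µM 8-MBaP and 72 hpf and was counted in no library of 13.3 µM BaP, the one further call of this list among compound pairs.

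**Figure D4:**
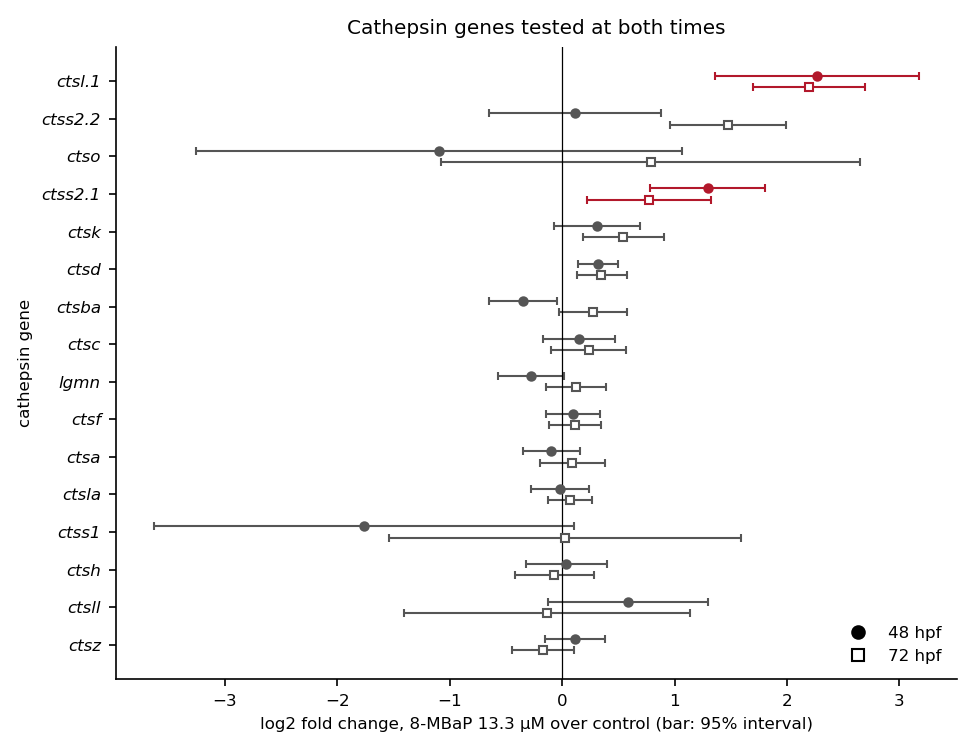
Log2 fold change of 13.3 µM 8-MBaP over control for each cathepsin gene tested at both times, sorted by the 72 hpf value, at 48 hpf (filled) and 72 hpf (open). Bars are 95% intervals, and *ctsl.1* and *ctss2.1* are in red. Their values of 2.27 and 1.296 at 48 hpf stand beside 0.11 for *ctss2.2*, and the median of the 14 other genes tested there is 0.067.

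A further 8 cathepsin L-like genes, most of them named by clone, were lower where an exposure was called. si:dkey-26g8.5 averaged 7.65 ± 4.06 CPM at 13.3 µM 8-MBaP and 20.2 ± 3.07 CPM in controls at 48 hpf (−1.41 ± 0.314, adjusted p = 0.0042). zgc:174855 averaged 28.8 ± 11.1 CPM and 66.2 ± 8.57 CPM in the same groups (−1.21 ± 0.243, adjusted p = 0.0011). The other 6 of the 8 genes tested at 48 hpf were not called there, and neither edgeR nor DESeq2 called a gene of this list higher in any exposure. At 0.133 µM 6-MBaP and 48 hpf DESeq2 gave no adjusted p for any of the 8. Over all genes, edgeR called 137 lower and 137 higher of 17794 at 13.3 µM 8-MBaP and 48 hpf. With age 7 of the 8 were lower and cts12 higher in controls (8.63 ± 2.88 CPM at 72 hpf and 0.128 ± 0.166 CPM at 48 hpf, adjusted p = 1.2e-12). zgc:174855 averaged 0.707 CPM in 72 hpf controls. Over all exposures against control, edgeR called zgc:174154 in 2 and si:dkey-269i1.4 in 1. Their calls at 72 hpf rest on control means of 1.27 ± 1.52 and 1.84 ± 2.55 CPM. The compound and concentration of these calls are not given here and need not be 13.3 µM 8-MBaP. Over all genes, edgeR called between 0.00543% and 2.47% in an exposure at 72 hpf. DESeq2 called no gene of the list at 72 hpf and, at 13.3 µM 8-MBaP, gave no adjusted p for 4 of them. Members of this list are close copies, and their reads could be split among them.

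Of a list of cystatins and related plasma proteins, fetuins among them, 7 were tested at 48 hpf and 6 at 72 hpf. Whether the fetuins act on cathepsins was not tested. *fetub*, a plasma fetuin made in the liver, was lower at 72 hpf: 101 ± 24.0 CPM at 1.33 µM and 92.4 ± 15.3 CPM at 13.3 µM 8-MBaP, against 160 ± 6.91 CPM in controls (−0.67 and −0.80, adjusted p = 0.0048 and 0.0002). The others, among them *cst3* and *cst14a.2*, were called in no exposure. Over all genes, 0.923% and 2.47% were called at 1.33 and 13.3 µM 8-MBaP at 72 hpf, so a list this short would hold few calls at those shares.

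The lysosome list had a median log2 fold change at 13.3 µM 8-MBaP of 0.039 at 48 hpf and −0.005 at 72 hpf. Of 38 tested at 48 hpf, 2 were called higher at 13.3 µM 8-MBaP: *psap*, the precursor of the saposins (178 and 134 CPM in exposed and control pools, adjusted p = 0.014), and *gusb*, a glucuronidase (20.7 and 12.7 CPM, adjusted p = 0.039). Both were also called higher at 72 hpf at that concentration, the only edgeR calls of 37. Over all genes, 137 of 17794 were called higher at 13.3 µM 8-MBaP at 48 hpf and 222 of 18423 at 72 hpf. *pla2g15*, a phospholipase, was called lower at 1.33 µM at 48 hpf (−0.41, adjusted p = 0.029). *atp6ap2* and *cd63*, the other well counted genes, were called in no exposure by edgeR, while DESeq2 called *cd63* higher at 13.3 µM 8-MBaP and 72 hpf. The summed level of the list ran from 989 to 1066 CPM at 13.3 µM 8-MBaP and from 991 to 1007 CPM in controls at 48 hpf.

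Markers of the cells known for these enzymes were measured beside them. Of 18 macrophage and microglia genes tested at 48 hpf, 1 was called at 13.3 µM 8-MBaP, the apolipoprotein gene *apoc1*, which was lower (−0.32, adjusted p = 0.022). Of 21 at 72 hpf, *apoeb* was called higher (0.57, adjusted p = 0.00061) and the chemokine gene ccl34b.1 lower (−1.62, adjusted p = 0.00039) by edgeR. DESeq2 also called *marco* lower there. The shares called over all genes were 1.54% and 2.47%. The summed level of this list was 2564 to 3193 CPM at 13.3 µM 8-MBaP and 2415 to 3632 CPM in controls at 48 hpf, and 1546 to 1938 CPM and 1509 to 1732 CPM at 72 hpf. *apoc1* and *apoeb* make up most of that sum and are also made in the yolk layer. *coro1a* and *slc7a7* were not called. Over the 18 exposures edgeR called *apoc1* in 2, *apoeb* in 1 and ccl34b.1 in 3. At 48 hpf DESeq2 called *apoc1* lower at 13.3 µM 6-MBaP and 1.33 µM BaP, where edgeR called 0.253% and 0.0843% of all genes.

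Neutrophil genes moved in both directions. *lyz*, a lysozyme of neutrophils and macrophages, was lower at 13.3 µM 8-MBaP at 48 hpf (52.2 CPM against 107 CPM in controls, −1.04, adjusted p = 2e-08), and the collagenase gene *mmp13a* was higher (9.92 and 2.02 CPM, adjusted p = 0.00011), as it was at 72 hpf (6.34 and 2.33 CPM, adjusted p = 0.013). The summed neutrophil list was 88.8 to 130 CPM and 123 to 185 CPM in these groups, and 64.2 to 73.1 CPM and 55.4 to 81.8 CPM at 72 hpf. The sum ran from 105.6 to 113.9 CPM at 13.3 µM 6-MBaP and 48 hpf, where DESeq2 called *lyz* lower. Over all exposures against control, edgeR called *lyz* in 5, *mmp13a* in 4 and *mmp9* in 1. The exposures named here for DESeq2 may be among them. DESeq2 also called *lyz* lower at 0.133 and 1.33 µM 8-MBaP at 48 hpf. At 13.3 µM BaP and that age it called *lyz* and *mmp13a*, 1 lower and 1 higher. It called *mmp9* higher at 13.3 µM 8-MBaP at 48 hpf and at 1.33 µM at 72 hpf. Over all genes edgeR called 1.54% and 2.47% at 13.3 µM 8-MBaP at 48 and 72 hpf. *cyba*, *srgn* and *npsn* were not called. None of the 8 antigen presentation genes tested at each age was called at any exposure by edgeR, and *b2m*, the light chain of class I molecules, was the best counted at 4.76 CPM over the 48 hpf libraries. Between 0 and 3 of them had an unadjusted p under 0.05 in an exposure, and DESeq2 called 1, *b2m*, higher at 13.3 µM 8-MBaP and 48 hpf. None of the 7 and 10 genes of endocytic enterocytes and pronephros was called by edgeR or DESeq2, with 0 to 3 at an unadjusted p under 0.05. The best counted were *dab2*, FABP6, *pllp* and *lrp2a*. At 0.133 µM 6-MBaP DESeq2 gave no adjusted p for any antigen presentation, enterocyte or pronephros gene at either age. In many other exposures some of them also lacked one, so DESeq2 could not call them there. Over all genes edgeR called between 0% and 2.47% in an exposure, so lists this short would hold few calls at those shares.

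In the hatching gland list, the hatching enzyme genes *he1.1* and *he1.2* were lower at 13.3 µM 8-MBaP at 72 hpf (−2.73 and −2.08, adjusted p = 0.00038 and 0.013). None of 7 was called at that concentration at 48 hpf by edgeR or DESeq2, with 1 at an unadjusted p under 0.05. DESeq2 gave no adjusted p for 1 of these 7. The control pools were uneven at 72 hpf: the summed list ran from 192.5 to 391.8 CPM in controls and from 209.7 to 226.6 CPM at 13.3 µM 8-MBaP. At 48 hpf DESeq2 called *xbp1* higher at 1.33 µM 8-MBaP and *he1.1* higher at 13.3 µM 6-MBaP. Of the epidermal genes at 13.3 µM 8-MBaP, 6 of 18 at 48 hpf and 7 of 18 at 72 hpf were called lower and none higher, beside 137 of 17794 and 233 of 18423 genes called lower in all. *krt4* fell to 3048 CPM against 7661 CPM in controls at 72 hpf (−1.33, adjusted p = 1.6e-19), and *cyt1*, *cyt1l*, *krt91*, *krt15* and *anxa1c* also fell by 1.13, 1.49, 0.62, 2.50 and 1.08 on the log2 scale. Other exposures shared such calls: of the 18, edgeR called *cyt1* in 11, *krt15* in 9, *krt91* in 8, and *krt4* and *anxa1c* in 7 each. At 72 hpf DESeq2 called 6 epidermal genes lower at 13.3 µM BaP and 3 at 13.3 µM 6-MBaP. EdgeR called 0.809% and 0.038% of all genes there. The summed list averaged 13540 CPM at 13.3 µM BaP and 20720 CPM in controls at 72 hpf. The part that changes in the number of skin, gland or immune cells play in the values of *ctsl.1* and *ctss2.1* was not tested.

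The AHR battery stood far from its controls in the same libraries: 9 of 12 genes were called higher at 13.3 µM 8-MBaP at 48 hpf and 8 of 12 at 72 hpf, beside 0.77% and 1.21% of all genes called higher. *sult6b1*, a sulfotransferase, averaged 377 ± 31.6 CPM at 13.3 µM 8-MBaP and 59.1 ± 5.42 CPM in controls at 48 hpf. *ahr2*, the main AHR of zebrafish for this class of compounds, averaged 19.4 ± 2.93 and 8.34 ± 1.75 CPM (1.22 ± 0.181, adjusted p = 2.6e-06). *foxq1a* was called in 14 of the 18 exposures, and *nqo1* in none.

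Across the 20 group means, each centred on its time point, the gene whose pattern was most like *ctsl.1* was *ahr2* (Pearson r = 0.933, of 13927 genes). CDKN1B, a cyclin-dependent kinase inhibitor (0.918), si:ch211-207n23.2 (0.899), PSPH, a serine synthesis enzyme (0.893), and *cxcl19*, a chemokine gene (0.891), came next. For *ctss2.1* the nearest were ALAS1, the first enzyme of heme synthesis (0.909), *btr02* (0.898), *mamdc2b* (0.895), CDKN1B (0.895) and *sult6b1* (0.886). The correlation between *ctsl.1* and *ctss2.1* was 0.851, which placed *ctss2.1* 21st for *ctsl.1* and *ctsl.1* 12th for *ctss2.1*. These points share plates and libraries, so the coefficients are descriptions. Both *ctsl.1* and *ctss2.1* were chosen for a rise in groups that are among these points. A high correlation between them, or with other genes raised in those groups, is therefore partly built in. Shared regulation was not tested.

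Within a single time, over 10 group means, the nearest genes were mostly others. For *ctsl.1* they were LUZP1 (0.961), *msx2b* (0.943), MIDN (0.943), *ahr2* (0.934) and zgc:153031 (0.933) at 48 hpf. At 72 hpf they were NFE2L2 (0.961), PCK1 (0.947), si:dkey-247k7.2 (0.945), CDKN1B (0.945) and *gpc1b* (0.940). For *ctss2.1* at 48 hpf *cxcl19* (0.961), CYP1B1 (0.951), si:ch211-207n23.2 (0.949), *sult6b1* (0.947) and AIMP2 (0.945) led. At 72 hpf MYOG (0.946), *mhc1zba* (0.923), *sox19a* (0.920), FZD7 (0.909) and PRRX1 (0.897) led. The 2 cathepsins correlated at 0.890 at 48 hpf and 0.797 at 72 hpf. Values of each time entered the choice of the genes, so these coefficients are descriptions as well.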

How the data were processed

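The deposited table holds raw read counts per Ensembl gene for 80 libraries, which the authors obtained by 3′ mRNA sequencing (BRB-seq), with demultiplexing and mapping by a sequencing service. Aligner, genome build and annotation were not given in the sources used here. The pools sequenced were the 4 with the most RNA of 5 collected. Of 32520 identifiers, 29201 had a name. Names given in capitals after a mammalian gene were matched to listed zebrafish symbols by spelling, with a copy letter dropped where needed. *cyp1a* was matched by a RefSeq synonym. Most matched names are printed with the zebrafish symbol and the rest as given. Where a copy letter was dropped, the copy named rests on spelling alone.

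Groups came from sample titles. A gene was tested at a time where 2 or more libraries held 5 or more of its reads, with edgeR 4.0.16 in R 4.3.3: TMM scaling, 1 quasi-likelihood fit per time over its 10 groups, and Benjamini-Hochberg adjustment over all genes, with calls at adjusted p of 0.05 or less. Time in controls and differences of effects used all 80 libraries. Intervals are 95% intervals from the SE by the normal approximation. The correlations used log2 CPM with a prior count of 2 and genes averaging 1 CPM or more.

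Both genes, the lists and the tests were chosen with earlier results of these data known. By rule, the text names both genes, every cathepsin or cystatin called in an exposure, and of other lists the 4 best counted genes and up to 4 called at 13.3 µM 8-MBaP. Alternatives were DESeq2 1.42.0, other size factors and filters, fits of 2 groups, leaving out each pool, and the pool letter as a block. The edgeR step was tested on simulated data. No gene sequences were used here.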

Additional observations from a re-analysis of the deposited data

Results flagged for a closer look

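In 60 groups of 4 pools examined (*ctsl.1*, *ctss2.1* and *ctss2.2* in 20 groups each), 2 held a pool whose gap to the nearest other pool, as a part of the group's whole range, was above Dixon's 95% critical value for 4 samples. Chance marks about 1 group in 20. For *ctss2.1*, pool C at 1.33 µM 8-MBaP and 72 hpf held 6.995 CPM, with the other 3 pools between 10.98 and 11.22 CPM (gap ratio 0.945). For *ctss2.2*, pool D at 1.33 µM 6-MBaP and 72 hpf held 2.633 CPM, with the other 3 pools between 3.8 and 3.996 CPM (gap ratio 0.856).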

How the results depend on the processing

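The *ctsl.1* calls at 48 hpf held in all alternatives run: 2.429 to 2.996 on the log2 scale at 1.33 µM 8-MBaP (highest adjusted p 0.0012), 2.04 to 2.606 at 13.3 µM (0.01) and 2.187 to 3.384 for 8-MBaP over 6-MBaP at 1.33 µM (0.0016). So did the *ctss2.1* calls at 72 hpf, 1.143 to 1.597 at 1.33 µM 8-MBaP (0.029) and 1.237 to 1.705 for 8-MBaP over 6-MBaP at 1.33 µM (0.019), and the age differences of controls, 1.258 to 1.823 for *ctsl.1* (0.029) and −1.791 to −1.34 for *ctss2.1* (0.00086). DESeq2 and RLE size factors changed no call of either gene where they gave an adjusted p. Contrasts without a DESeq2 adjusted p were left out of this comparison, so DESeq2 says nothing on them. Values short of the threshold were less settled, and the cause was not tested. With no filter other than 1 read, edgeR called *ctsl.1* at 0.133 µM 8-MBaP (1.731, adjusted p = 0.0048) and for 8-MBaP over BaP at 1.33 µM (1.395, 0.013), both at 48 hpf, and *ctss2.1* at 13.3 µM BaP and 72 hpf (0.961, 0.039). With only the 2 groups compared in the fit, these *ctsl.1* results were 1.732 (0.047) and 1.394 (0.032). With *ctss2.1* and *ctss2.2* summed, chosen after seeing the data, 72 hpf values at 13.3 µM were 1.153 for 8-MBaP and 0.9 for BaP against control, 0.741 for 8-MBaP over 6-MBaP (adjusted p = 0.042) and 0.253 for 8-MBaP over BaP (0.78), which is −0.189 for *ctss2.1* alone.

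Leaving out 1 pool at a time, *ctsl.1* at 48 hpf ran from 1.508 to 2.076 at 0.133 µM 8-MBaP, from −0.732 to 0.465 at 1.33 µM 6-MBaP, from 1.162 to 1.757 for 8-MBaP over BaP at 1.33 µM and from −0.333 to 0.163 for 6-MBaP over BaP at 13.3 µM. *ctss2.1* at 72 hpf ran from 0.617 to 1.071 at 13.3 µM 8-MBaP, from 0.806 to 1.261 at 13.3 µM BaP, from −0.406 to 0.143 at 1.33 µM 6-MBaP and from −0.173 to 0.126 for 6-MBaP over BaP at 0.133 µM.

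Counts of genes called moved more. With no filter other than 1 read they were, from low to high concentration at 48 hpf, 175 and 201 for the lower 2 of 8-MBaP (77 and 123 in the edgeR fit reported), 34, 25 and 137 for 6-MBaP (0, 0 and 45) and 18, 85 and 153 for BaP (2, 15 and 61). At 72 hpf they were 103 and 307 for the lower 2 of 8-MBaP (51 and 170), 67, 19 and 80 for 6-MBaP (1, 1 and 7) and 17, 100 and 319 for BaP (2, 24 and 149). DESeq2 called 152 for 0.133 µM 8-MBaP, 14 and 140 for 0.133 and 13.3 µM 6-MBaP, and 57 and 92 for 1.33 and 13.3 µM BaP at 48 hpf, and 28 and 13 for 0.133 and 13.3 µM 6-MBaP and 50 for 1.33 µM BaP at 72 hpf. With only the 2 groups compared, 6-MBaP gave 3 and 1 at 0.133 and 1.33 µM at 48 hpf, and 12, 3 and 16 at 72 hpf, where 0.133 µM BaP gave 7. filterByExpr gave 4 for 13.3 µM 6-MBaP at 72 hpf.

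Pool letters mark no shared origin in the labels, and same-letter pools did not deviate together (76 correlations between −0.054 and 0.024). With the letter as a replicate block, the *ctsl.1* value at 1.33 µM 8-MBaP and 48 hpf was 2.64, and the block changed no call of either gene. The search for promoter motifs was not run. At 3 to 12 reads of *ctsl.1* per control library at 48 hpf, depth limits every fold change over these controls.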
